A study of Mus musculus with 13 samples.

Results

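The genes of cholesterol and fatty acid synthesis were examined at their promoters in 13 ATAC-seq peak lists from cultured mouse oligodendrocyte progenitor cells (OPCs), which divide and later give rise to the cells that form myelin. The list held 29 genes of the 55413 in the GENCODE M21 annotation, chosen by function with earlier results of these data known. It had 7 for the steps from acetyl-CoA to farnesyl diphosphate, 3 from squalene to lanosterol, 8 from lanosterol to cholesterol, 5 for sterol sensing, 1 for sterol transport and 5 for fatty acid synthesis. A gene was called in a library when a peak of that library overlapped its promoter, defined as 2 kb upstream to 1 kb downstream of any annotated transcription start on mm10. Each promoter peak carried its deposited fold enrichment, relative to nearby background in that library (hereafter fold), and the highest fold was used where a promoter held several peaks.

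The cells came from P5–P7 pups of litters labelled AMGFAP-Cre;K27M, where the study names the driver hGFAP-Cre. Tissue was pooled by region and genotype, so that a library stands for several animals. The cells were selected on an antibody to PDGFRα after endothelial cells and microglia had been depleted, and were kept in proliferation medium with forskolin, CNTF, neurotrophin-3 and PDGF. The control groups were littermates, and the K27M groups expressed H3.3 K27M from the conditional H3-3a-LSL-K27M allele. Cre under the hGFAP promoter activates it in embryonic neural stem and progenitor cells, so the mutation is not confined to the OPC lineage. Brainstem gave 3 libraries of each genotype. Telencephalon, labelled cortex and dissected from its dorsal part, gave 3 control and 4 K27M libraries. All groups received the same medium and none was differentiated. Culture numbers (41, 51, 59 and 61) recur across groups but are not balanced. Culture 41 has K27M libraries only, and culture 51 has no K27M brainstem library. The regional comparison asks whether these promoters differ with the origin of the OPCs, and the genotype comparison whether they differ with K27M.

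Cholesterol is built from acetyl-CoA through mevalonate, the isoprenoid farnesyl diphosphate, squalene and lanosterol. The same acetyl-CoA feeds the malonyl-CoA from which fatty acids are made. SREBP transcription factors, held in the endoplasmic reticulum by SCAP and INSIG when sterols are plentiful, switch on genes of both routes when sterols fall, and oligodendrocytes make large amounts of cholesterol for myelin. An ATAC-seq peak at a promoter marks open DNA and does not measure transcription.

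The lists held 16879 to 52466 peaks per library and 487975 in all. They carry no read counts, so depth is unknown, and a missing peak means only that none was called. Control telencephalon culture 59 had the shortest list, and 44.4% of protein-coding promoters were called in it against 55.1% to 64.0% in the other libraries. OPC promoters were called widely, with Pdgfra, Olig1, Olig2, Sox10 and Lhfpl3 in all 13 libraries, but Cspg4 in 3. Promoters of genes that mark other cells were called too. Of 4 genes a list, 0 to 2 mature oligodendrocyte, 1 to 4 astrocyte, 0 to 2 microglial, 0 to 2 endothelial and 2 to 4 neuronal genes had a promoter peak in a library. Gfap, Snap25 and Syt1 were called in all 13, and Mog, Mag, Cx3cr1, Csf1r and Tek in none. The microglial gene P2ry12 was called in 12 and the endothelial gene Flt1 in 11. Brainstem libraries called 2 to 4 (control) and 1 to 4 (K27M) astrocyte genes, and telencephalon libraries 1 to 4 (control) and 2 to 3 (K27M). The part of these cells in the results was not tested.

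Promoters of lipid synthesis were open in nearly every culture. Of the 29 genes, 26 had a promoter peak in all 13 libraries, against 42.0% of protein-coding genes (9211 of 21938). Because the list was chosen with earlier results of these data known, its contrasts with other promoters are descriptions without a test. Each library called 26 to 28 of the 29. The exceptions were Pmvk in 10 libraries, Sc5d in 12 and Stard4 in none. The folds were also high for promoters. The percentile of a peak is the share of its own list with the same or a lower fold, and the median over the 26 genes was 87.9, against 75.2 over the 11483 genes with a promoter peak in all 13 libraries (the shared promoters). The median fold was 3.94 for the 26 genes and 3.55 for the shared promoters. Ranked among the shared promoters, 21 of the 26 lay above their median. Srebf1, Scd2, Scap and Fasn lay lowest, at percentiles of 4.28, 5.97, 7.83 and 10.5 of the shared promoters. Within every library the median of the members called there (26 to 28) lay above that of the shared promoters, by 0.09 to 0.19 on the log2 scale.

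**Figure D1:**
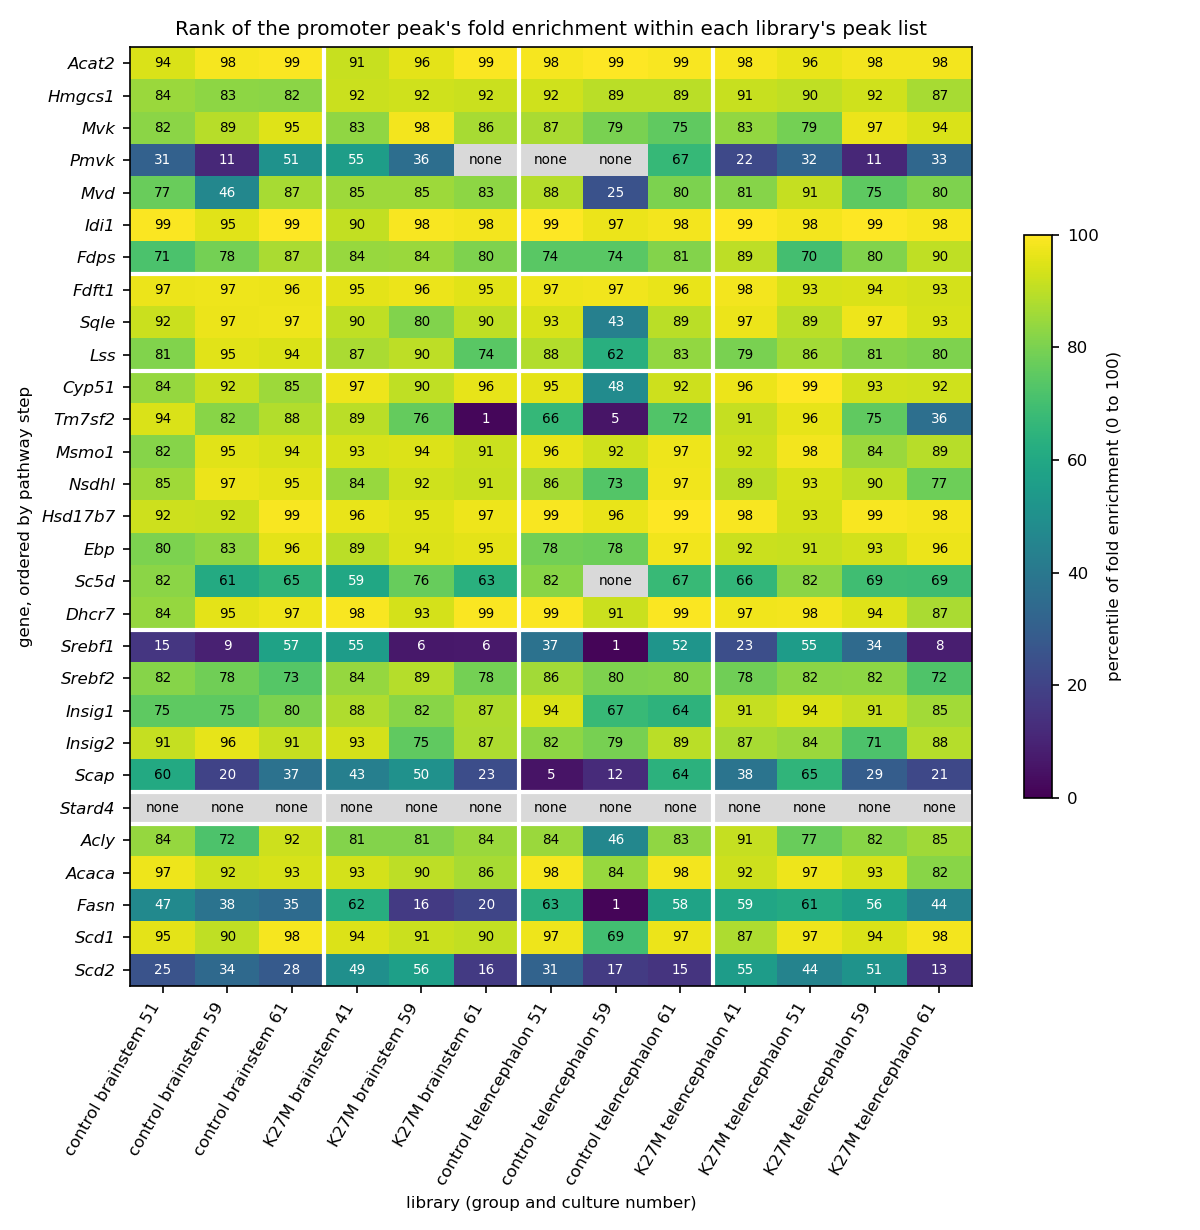
Percentile of the promoter peak's fold within each library's own list (colour and number, rounded down, 0 to 100) for the 29 genes in pathway order (rows) and the 13 libraries by group and culture number (columns). Grey cells marked none have no promoter peak, namely all 13 libraries for Stard4, 3 for Pmvk and 1 for Sc5d, and most rows are bright, apart from Pmvk, Srebf1, Scap, Fasn and Scd2.

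The steps from acetyl-CoA to farnesyl diphosphate included the 2 highest promoters of the set. Idi1, the isomerase that makes dimethylallyl diphosphate, had the highest mean percentile, 98.0 ± 2.51 (SD, n = 13), with a mean fold of 4.91 ± 0.61. Its folds were 4.94, 4.23 and 6.17 in control brainstem, 4.38, 4.93 and 4.43 in K27M brainstem, 4.88, 3.91 and 5.26 in control telencephalon, and 5.09, 5.26, 5.64 and 4.73 in K27M telencephalon. The 4 groups overlapped, and the lowest value came from the shortest list. Acat2, which condenses acetyl-CoA units, was next at 97.7 ± 2.35, with folds of 4.23 to 5.70. Hmgcs1, the HMG-CoA synthase, had a mean percentile of 89.4 ± 3.72 and folds of 3.49 to 4.48, in a peak whose median width was 1773 bp. Fdps, the farnesyl diphosphate synthase, had 80.8 ± 6.67 and folds of 3.12 to 4.27. Mvd, the mevalonate diphosphate decarboxylase, had 75.9 ± 18.9, with its lowest value, 25.1, in control telencephalon culture 59.

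Pmvk, the phosphomevalonate kinase (chr3:89454541-89469013, plus strand), was the weak promoter of this stretch. It had no promoter peak in K27M brainstem culture 61 and in control telencephalon cultures 51 and 59. The folds of the other 10 libraries were 2.77, 2.59 and 3.10 in control brainstem, 2.98 and 2.87 in K27M brainstem, 3.41 in control telencephalon, and 2.53, 2.57, 2.56 and 2.59 in K27M telencephalon. The highest fold came from control telencephalon, where it was the only value. Its mean percentile where called was 35.2 ± 18.4 (n = 10), and with every list reduced to its 16879 most significant peaks it was called in 3 libraries. The peak covered up to 3 annotated starts, and its centre lay 4640 bp downstream of the first annotated start of the gene.

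The promoter DNA of 5 genes is shown from RefSeq windows on GRCm38.p6, 250 bases before a start, cut to the part that lies outside every annotated exon. Hsd17b7 is shown for its high rank, Fasn and Scap for their low rank, and Hmgcs1 and Mvk for their motifs. Capitals mark CCAAT on either strand (read as ATTGG on the other), the E-box CACGTG and the sterol element pattern TCACNCCAC, read from the strand of the gene 5′ to 3′. The stretches are chr13:119690101-119690350 (plus strand) for Hmgcs1, chr5:114444061-114444268 (plus) for Mvk, chr1:169969242-169969408 (minus) for Hsd17b7, chr11:120824548-120824797 (minus) for Fasn and chr9:110333038-110333287 (plus) for Scap. The strongest promoter peak contained the whole stretch in 13 of 13 libraries for the first 4 genes and in 4 of 13 for Scap.
Hmgcs1: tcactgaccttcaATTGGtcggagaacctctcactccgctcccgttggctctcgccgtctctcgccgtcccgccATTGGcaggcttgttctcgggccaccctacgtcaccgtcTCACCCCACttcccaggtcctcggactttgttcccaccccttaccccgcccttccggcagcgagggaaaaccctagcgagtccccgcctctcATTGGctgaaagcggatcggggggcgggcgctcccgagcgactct
Mvk: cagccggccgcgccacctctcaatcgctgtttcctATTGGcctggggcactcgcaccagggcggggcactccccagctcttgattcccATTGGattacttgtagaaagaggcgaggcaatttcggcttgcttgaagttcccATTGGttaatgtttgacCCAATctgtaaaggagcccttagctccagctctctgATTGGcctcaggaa
Hsd17b7: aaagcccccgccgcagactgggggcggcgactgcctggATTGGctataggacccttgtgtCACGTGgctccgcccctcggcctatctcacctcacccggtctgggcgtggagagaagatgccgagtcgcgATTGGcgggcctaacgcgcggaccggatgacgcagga
Fasn: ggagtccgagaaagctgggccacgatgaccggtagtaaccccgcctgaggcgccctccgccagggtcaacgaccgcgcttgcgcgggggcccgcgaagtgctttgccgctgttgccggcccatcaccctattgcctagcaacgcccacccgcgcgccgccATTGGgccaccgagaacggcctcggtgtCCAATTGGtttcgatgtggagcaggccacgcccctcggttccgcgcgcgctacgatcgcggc
Scap: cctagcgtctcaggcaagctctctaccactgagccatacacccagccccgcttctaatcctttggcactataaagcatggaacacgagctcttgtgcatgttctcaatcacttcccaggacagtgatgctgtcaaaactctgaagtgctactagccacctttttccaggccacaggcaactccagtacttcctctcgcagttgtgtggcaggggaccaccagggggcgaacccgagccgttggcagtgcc

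Of these stretches, Hmgcs1 holds 1 sterol element match and 3 CCAAT boxes, and Mvk 5 CCAAT boxes. Hsd17b7 holds 2 CCAAT boxes and 1 E-box, and Fasn 3 CCAAT boxes, where 2 overlap. The printed Scap stretch holds none of the 3 motifs. An E-box of Scap lies outside the printed part, downstream of the start used for that stretch. The same E-box lies upstream of another Scap start in the RefSeq windows. The RefSeq table had windows of 300 bases (250 before and 50 after a start) for 23 of the 29 genes, 31 windows in all; Fdps, Fdft1, Sqle, Stard4, Scd1 and Scd2 were not matched. Over both strands, CCAAT stood in 67.7% of these windows against 37.4% of all 32851 windows, and in 67.9% (19 of 28) for genes with shared promoters against 39.6% of the 10320 windows of all such genes. The GC box GGGCGG stood in 82.1% of the 28 windows and 63.2% of the 10320. CACGTG stood in 17.9% (5 of 28) and 9.89%, and TCACNCCAC in 3.57% (1 of 28, Hmgcs1) and 1.09%. The median number of CpG sites was 21 in both. These matches describe the letters of the windows only.

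All 3 genes from squalene to lanosterol were called in all 13 libraries. Fdft1, the squalene synthase, had a mean percentile of 96.3 ± 1.53 and folds of 4.01 to 5.05. Sqle, the squalene epoxidase, had 88.7 ± 14.4, with folds of 4.07, 4.37 and 5.11 in control brainstem, 4.35, 3.70 and 3.80 in K27M brainstem, 3.81, 2.80 and 4.31 in control telencephalon, and 4.32, 4.32, 4.48 and 4.08 in K27M telencephalon. The lowest of these, at percentile 43.4, was again control telencephalon culture 59. Lss, the lanosterol synthase, had 83.6 ± 8.58. Fdft1 had 2 separate promoter peaks (chr14, minus strand). The one at 63177601-63178644 was called in 13 libraries and the one at 63164435-63166879, over another start, in 9. In all 9 the first was stronger, by 1.46 to 2.00 times.

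The 8 genes from lanosterol to cholesterol had the highest step median, a percentile of 89.7. Hsd17b7, a sterol 3-ketoreductase, followed Idi1 and Acat2 in the whole set at 96.8 ± 2.70, with folds of 3.86 to 5.92. Cyp51, the lanosterol demethylase, had 89.6 ± 13.2 and folds of 2.83 to 5.98. Sc5d, the sterol C5-desaturase, was called in 12 libraries with folds of 3.07 to 3.94 (percentile 70.5 ± 8.47) and was missing from the shortest list, control telencephalon culture 59. Tm7sf2, a sterol reductase, varied most of the 26 genes, with percentiles from 1.70 in K27M brainstem culture 61 to 96.4 in K27M telencephalon culture 51. Dhcr7, the last reductase of its branch, had 2 promoter peaks in all 13 libraries (chr7, plus strand). The one over the downstream starts, 143829369-143830725, had folds of 3.56 to 5.82, and the one at the first starts, 143822162-143823500, folds of 2.85 to 4.65. The downstream peak was stronger in 13 of 13 libraries, by 1.03 to 1.56 times.

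Sterol sensing held both high and low promoters. Srebf2, the SREBP chiefly tied to cholesterol genes, had a mean percentile of 80.8 ± 4.58 and folds of 3.23 to 4.00. Insig1 and Insig2, which retain SCAP in the endoplasmic reticulum, had 83.0 ± 9.85 and 86.2 ± 7.13. Srebf1, the SREBP chiefly tied to fatty acid genes, was the lowest of the 26 at 28.0 ± 21.7, and Scap, the SREBP escort, was low too at 36.4 ± 19.8. Srebf1 folds were 2.60, 2.55 and 3.25 in control brainstem, 2.96, 2.48 and 2.34 in K27M brainstem, 2.56, 2.16 and 3.06 in control telencephalon, and 2.55, 3.02, 2.82 and 2.30 in K27M telencephalon, with the groups overlapping. They came from different sites (chr11, minus strand). A peak at 60208437-60210753 over 2 starts was called in 13 libraries at folds of 2.07 to 3.01, and peaks at 60220163-60223369 over the first starts in 12 at 2.09 to 2.77. A peak at 60199487-60200391, which covers no start, was called in 10 at 2.24 to 3.25 and was the strongest in 6. A Srebf1 value is therefore not always that of one element.

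Stard4, a carrier of sterols in the cytosol (chr18:33199355-33213862, minus strand), had no promoter peak in any library. A peak at 33199999-33201719, in its last part and overlapping an annotated UTR, was called in 12 of 13 libraries with a mean fold of 3.37 ± 0.29 and a mean percentile of 70.7. The library without it was control telencephalon culture 59.

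Fatty acid synthesis also mixed both kinds. Acaca, the acetyl-CoA carboxylase, had a mean percentile of 92.5 ± 5.30 and Scd1, a stearoyl-CoA desaturase, 92.7 ± 7.74. Acly, which releases acetyl-CoA from citrate, had 80.6 ± 11.5. Fasn, the fatty acid synthase, had 43.4 ± 20.0, with folds of 2.95, 2.87 and 2.82 in control brainstem, 3.16, 2.66 and 2.55 in K27M brainstem, 2.89, 2.16 and 3.19 in control telencephalon, and 2.95, 3.16, 3.08 and 2.72 in K27M telencephalon. Scd2, the other desaturase, had a mean percentile of 33.9 and folds of 2.39 to 3.15, but the widest peak of all members, with a median of 2611 bp and a range of 709 to 3809 bp. The narrowest Scd2 peaks were those of control telencephalon culture 59 (709 bp) and control brainstem culture 59 (793 bp). Acaca had 2 promoter peaks (chr11, plus strand). The one at 84179085-84180714 was called in 13 libraries at folds of 3.34 to 5.22, and the one at the first starts, 84128797-84130386, in 12 at 2.44 to 2.90. The downstream peak was stronger in 12 of 12, by 1.21 to 1.97 times. An intronic peak of Acaca with no annotated start, 84323866-84324897, was called in 13 libraries at a mean fold of 4.59 ± 0.71.

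By step, the median percentile over genes was 87.1 from acetyl-CoA to farnesyl diphosphate, 88.7 from squalene to lanosterol, 89.7 from lanosterol to cholesterol, 80.8 for sterol sensing and 80.6 for fatty acid synthesis. Library by library, the lanosterol to cholesterol genes had a higher median than the sterol sensing and fatty acid genes in 13 of 13 libraries each. The order of the 3 cholesterol stretches was not fixed: squalene to lanosterol was above lanosterol to cholesterol in 7 libraries and below in 6. These are descriptions of small lists, which, like the other lipid genes below, were chosen with earlier results of these data known. For comparison, 23 other lipid genes (among them Acss2, Ggps1, Npc1, Abca1 and the Elovl and Fads genes) had promoter peaks in all 13 libraries for 15, with a median percentile of 70.5 and a range from 9.60 (Elovl6, a fatty acid elongase) to 94.8 (Ggps1, the geranylgeranyl diphosphate synthase). The OPC genes called in all 13 libraries had mean percentiles of 5.71 (Sox10), 18.4 (Pdgfra), 40.3 (Olig1), 41.3 (Olig2) and 55.4 (Lhfpl3).

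The peaks lay over transcription starts. The strongest promoter peak covered an annotated start in every library that called it for 26 of the 28 genes with a peak. The exceptions were Fdft1 with 12 of 13 libraries and Srebf1 with 7 of 13. Some peaks serve more than 1 gene: in at least 10 libraries the strongest peak also lay in the promoter of another protein-coding gene for Mvk (Mmab), Tm7sf2 (Vps51), Nsdhl (Cetn2) and Fdps (Gm43738), and the signal of such a pair cannot be divided. Further peaks were shared with noncoding or unnamed genes for Acat2, Idi1, Hsd17b7, Insig1 and Insig2.

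**Figure D2:**
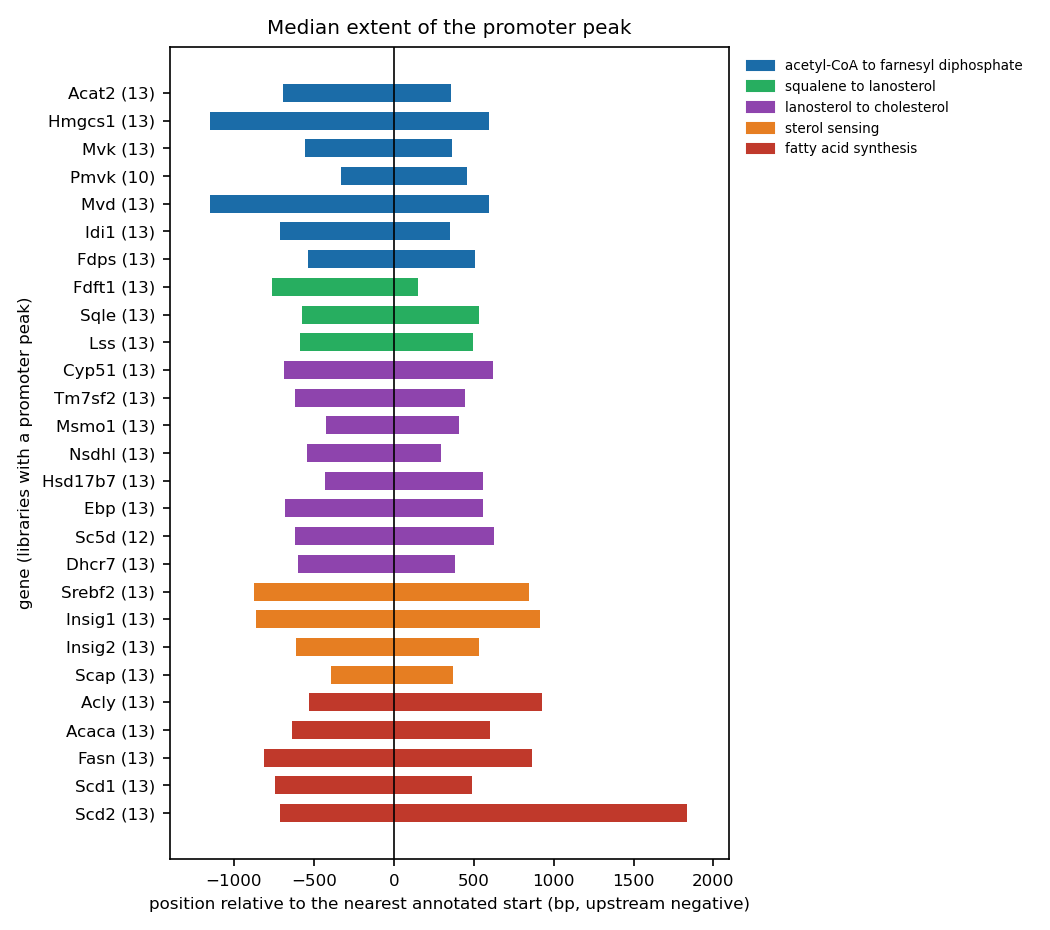
Median left and right edge of the strongest promoter peak over the libraries that called it (bars, bp from the nearest annotated start, upstream negative), coloured by step, for 27 genes with the number of libraries in brackets. Stard4 has no peak and Srebf1, whose strongest peak changes site, is left out; every bar crosses the start, and that of Scd2 reaches farthest downstream (1836 bp).

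Width and fold rank did not go together. Mean widths had a median of 1143 bp for the 26 genes and 1153 bp for the shared promoters. Across the 26 genes Spearman's rho between width and mean percentile was -0.25, and across the shared promoters -0.17, genes not being independent replicates. Insig1 (1809 bp), Hmgcs1 (1773 bp), Srebf2 (1722 bp) and Mvd (1720 bp) had wide peaks with ranks of 75.9 to 89.4, while Scap was narrow (806 bp) and low.

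**Figure D3:**
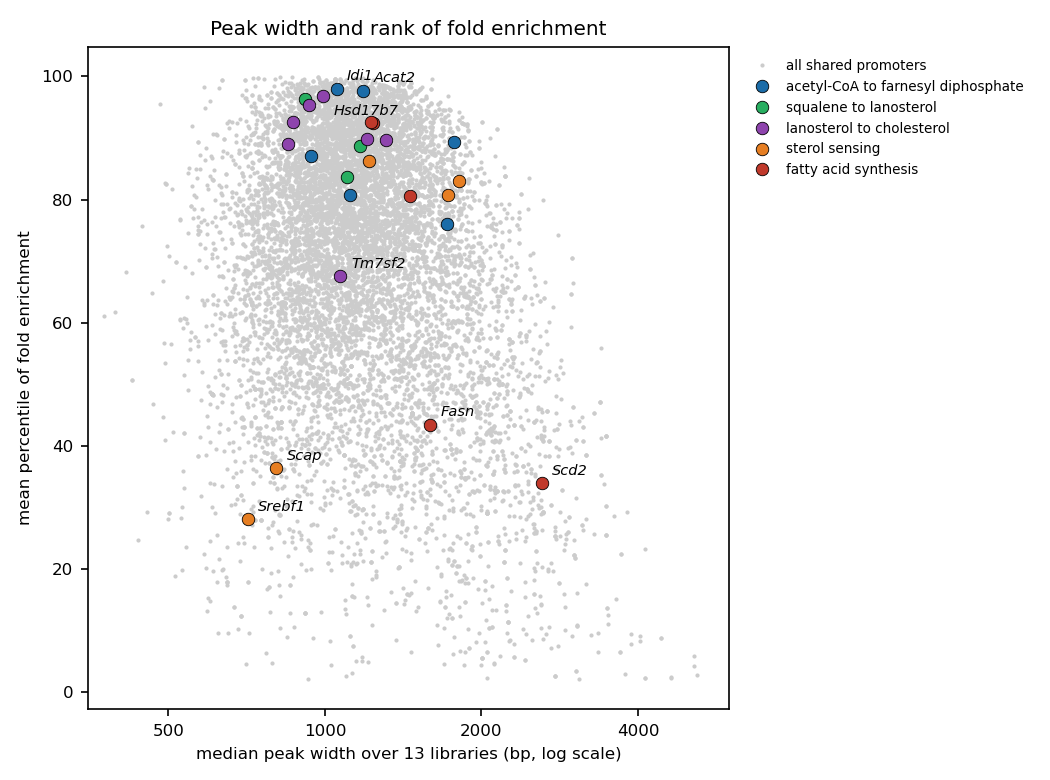
Median peak width over 13 libraries (x axis, bp, log scale) against mean percentile of fold (y axis) for the 26 genes called in all libraries (coloured by step) and all 11483 shared promoters (grey). Most of the 26 genes sit at the top between 850 and 1809 bp, with Srebf1, Scap, Fasn and Scd2 low, and Scd2 the widest at 2611 bp.

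No lipid synthesis promoter differed between brainstem and telencephalon cultures at the test's threshold. Relative fold, the log2 fold minus the median log2 fold of the shared promoters of the same library, was compared with limma over the 11483 shared promoters, with culture number as a block and Benjamini-Hochberg adjustment. Of the 26 genes, 0 passed an adjusted p of 0.05, with a background of 0.0174% (2 of 11483). At an unadjusted p under 0.05 there was 1 gene, Hsd17b7, against a background of 5.14%. The differences of the 26 genes ran from -0.14 to 0.09 (brainstem minus telencephalon), and every 95% confidence interval lay within 0.27 on the log2 scale, a 1.20-fold difference. Hsd17b7 relative folds were 0.23, 0.25 and 0.45 in control brainstem and 0.31, 0.29 and 0.42 in K27M brainstem. They were 0.48, 0.41 and 0.62 in control telencephalon and 0.45, 0.20, 0.49 and 0.44 in K27M telencephalon. The telencephalon values were mostly higher, but the regions overlapped. The fitted difference was -0.14 ± 0.06 (SE, limma), with an unadjusted p of 0.0286 and an adjusted p of 0.941. Acat2 was next, at -0.13 ± 0.07 (limma adjusted p = 0.941), and Idi1 followed at -0.10 ± 0.07 (limma adjusted p = 0.949). Of the 26 estimates, 8 were above 0 with the centring and 23 without it, where all shared promoters moved by 0.07 in the median, so the signs carry no direction for the set. With the libraries of each genotype taken alone, 0 of the 26 genes passed in control cultures (background 0%, unadjusted 3 genes and 4.86%) and 0 in K27M cultures (background 0.0261%, unadjusted 0 genes and 3.75%). The 95% intervals were wider there, reaching 0.57 in control (1.49-fold) and 0.39 in K27M (1.31-fold).

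Genotype gave the same count. Of the 26 genes, 0 passed an adjusted p of 0.05 between K27M and control (limma, background 0%), and 2 had an unadjusted p under 0.05 (background 4.37%). The differences ran from -0.12 to 0.20 (K27M minus control), with every 95% confidence interval within 0.36 on the log2 scale, 1.28-fold. Cyp51 had the largest. Its relative folds were 0.10, 0.25 and 0.03 in control brainstem and 0.35, 0.18 and 0.37 in K27M brainstem. They were 0.30, -0.04 and 0.22 in control telencephalon and 0.33, 0.57, 0.25 and 0.25 in K27M telencephalon. The K27M values were the higher ones on average in both regions, with overlap in each. The difference was 0.20 ± 0.08 (SE, limma), with an unadjusted p of 0.0129 and an adjusted p of 0.999. Insig1 followed with 0.16 ± 0.08 (limma unadjusted p = 0.0428, adjusted p = 0.999). Its relative folds were -0.01, 0.03 and -0.04 in control brainstem and 0.07, 0.06 and 0.19 in K27M brainstem, groups that did not overlap. In telencephalon they were 0.26, 0.06 and -0.20 for control and 0.18, 0.23, 0.22 and 0.12 for K27M, which overlapped. Mvd followed at 0.13 ± 0.07 (limma adjusted p = 0.999). Within brainstem 0 of 26 genes passed (background 0%, unadjusted 1 gene and 3.96%) and within telencephalon 0 (background 0%, unadjusted 0 genes and 4.15%). There the 95% intervals reached 0.61 in brainstem (1.52-fold) and 0.39 in telencephalon (1.31-fold). These within-group comparisons share libraries with each other and with the pooled ones.

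**Figure D4:**
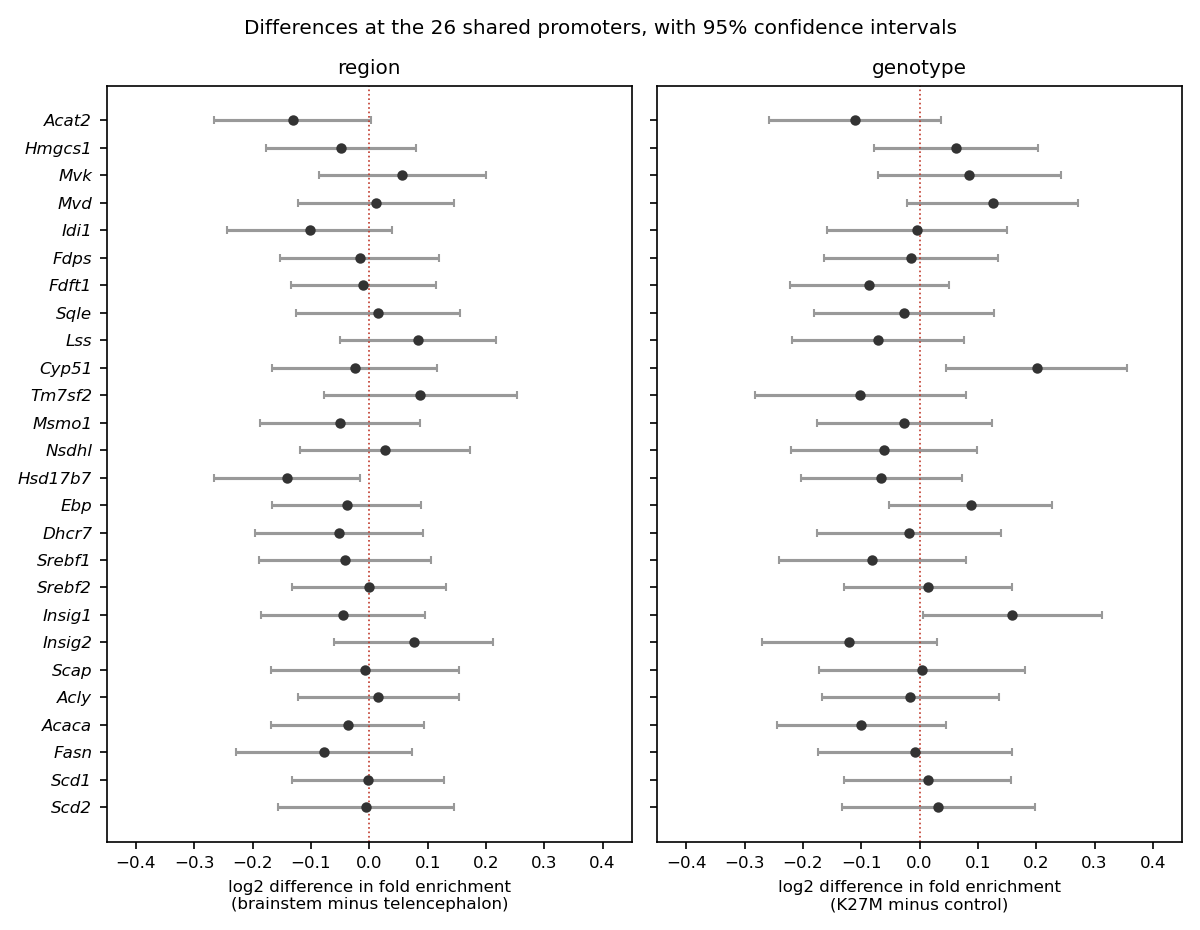
Differences in log2 fold between regions (left, brainstem minus telencephalon) and genotypes (right, K27M minus control) for the 26 genes in pathway order, as limma estimates (points) with 95% confidence intervals (bars). Most intervals span 0, apart from Hsd17b7 by region and Cyp51 and Insig1 by genotype, none of which passed after adjustment.

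The effect of K27M did not differ between regions for any of the 26 genes after adjustment (interaction term, limma, 0 of 26, background 0%), while 3 had an unadjusted p under 0.05 (background 3.86%). These 3 were singled out after their values were seen. Tm7sf2 had relative folds of 0.27, 0.11 and 0.09 in control brainstem and 0.11, 0.00 and -0.59 in K27M brainstem. In telencephalon they were -0.13, -0.30 and -0.10 for control and 0.17, 0.31, 0.01 and -0.36 for K27M. Both culture 61 libraries of K27M were the lowest of their groups. The interaction, the K27M effect in brainstem minus that in telencephalon, was -0.50 ± 0.16 (SE, limma unadjusted p = 0.00450, adjusted p = 1.00). Sqle gave -0.35 ± 0.14 and Dhcr7 0.33 ± 0.14, both with an adjusted p of 1.00 from limma.

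**Figure D5:**
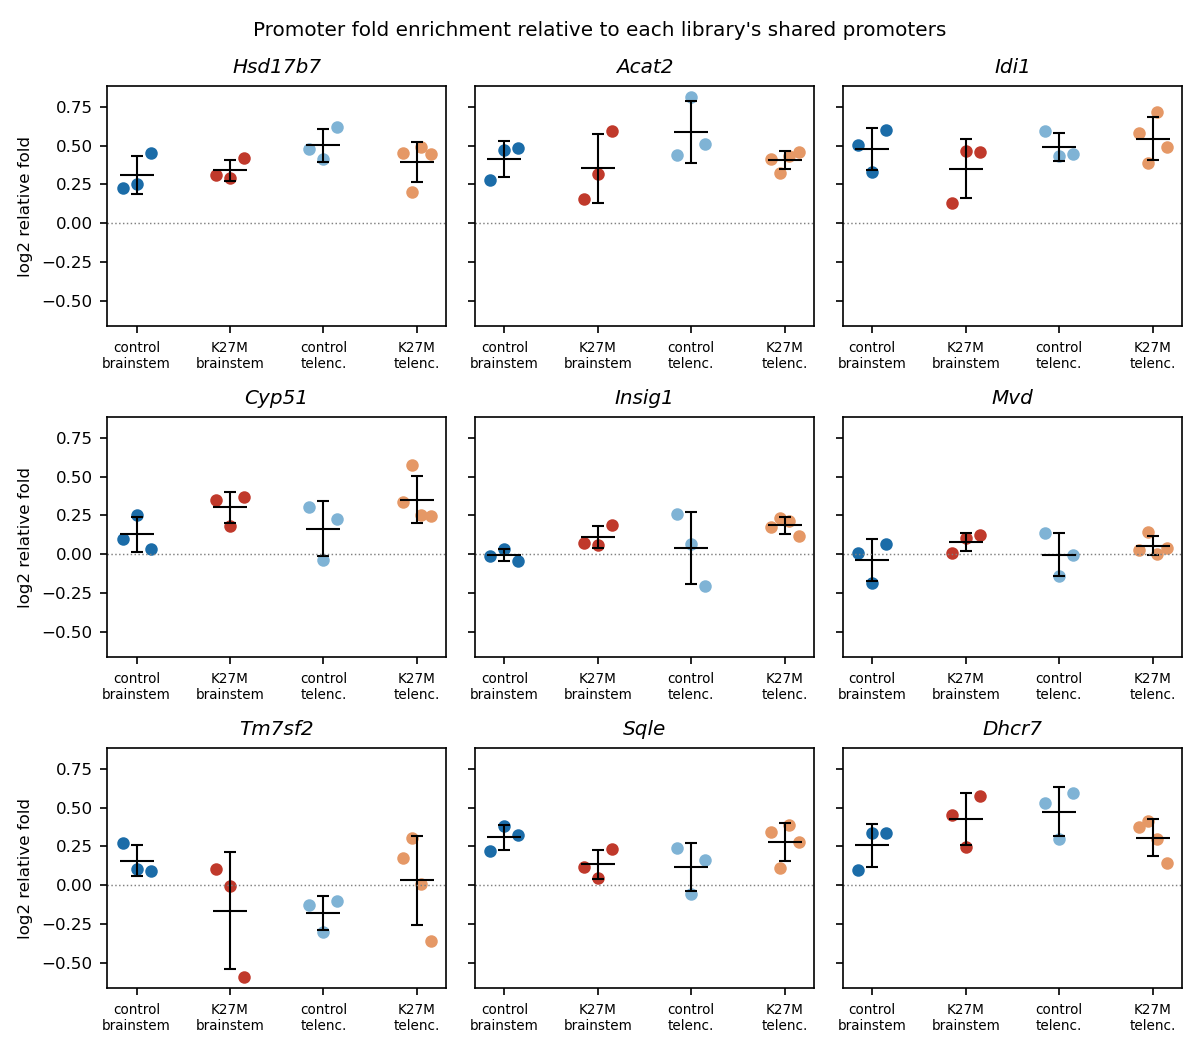
Log2 fold relative to the shared promoters of the same library (y axis) by group (x axis) for the 3 genes with the smallest p by region (top), by genotype (middle) and for the interaction (bottom); points are libraries and bars mean ± SD. Of the 9 genes plotted, Tm7sf2 spreads most, from -0.59 to 0.31.

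Peak width, tested the same way on the log2 scale, gave 0 of 26 genes by region (limma, background 0%, unadjusted 0 genes and 5.00%) and 0 by genotype (background 0%, unadjusted 0 genes and 4.22%). Within groups, 0 of 26 passed in each comparison as well (background 0%). The unadjusted counts were 0 by region in control (4.83%), 0 by region in K27M (3.59%), 0 by genotype in brainstem (3.81%), 1 by genotype in telencephalon (3.94%, Fdft1, named after its value was seen) and 0 for the interaction (3.29%). The widest pooled 95% intervals were those of Srebf1, whose strongest peak changes site, reaching 2.12-fold by region and 2.54-fold by genotype. Those of the other 25 genes reached at most 1.53-fold by region and 1.98-fold by genotype, both for Scd2. Detection itself was tested with two-sided Fisher's exact tests over genes called in 5 to 8 libraries. None of the 29 genes fell in that range, so 0 members were tested (background 0% of 1815 genes by region and 0% by genotype at the adjusted threshold). At an unadjusted p under 0.05 the background was 2.15% by region and 1.21% by genotype. Pmvk was called in 5 of 6 brainstem and 5 of 7 telencephalon libraries, and in 6 of 7 K27M and 4 of 6 control libraries. With genes called in 1 to 12 libraries tested instead, Fisher's exact test gave an unadjusted p of 1 for Pmvk by region and 0.559 by genotype.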

How the data were processed

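The 29 genes, the other lipid genes and the marker lists were chosen with earlier results of these data known. The authors trimmed the ATAC-seq reads with Trim Galore 0.6.7, aligned them to mm10 with BWA 0.7.17-r1188 and removed reads on the mm10 blacklist. MACS2 2.2.7.1 was then run in broad mode for each library by itself; the cutoff is not given in the sources used here. The deposited lists hold a fold enrichment (ratio) over local background, a −log10 p and −log10 q, each averaged over the peak, and a score derived from the −log10 q by the authors. Fold, width and −log10 p were used. The deposited lists were not normalised between libraries, while the study's own promoter comparison of ATAC-seq signal used a loess fit. A longer list, of a library with more yield, can hold weaker peaks, which moves percentiles.

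Promoters came from GENCODE M21 (2 kb upstream to 1 kb downstream, overlap of at least 1 bp). Log2 fold was centred on the median of 11483 promoters called in all 13 libraries and fitted with limma 3.58.1 (R 4.3.3; trended moderation, terms for group and culture), and log2 width likewise. The block followed the study, which accounted for matched cultures in its promoter test. Same-numbered libraries had a mean correlation of deviations of 0.08 (-0.11 to 0.29, 16 pairs). For libraries of different number it was -0.03 (-0.24 to 0.33, 47 pairs). Detection used Fisher's exact test (scipy 1.17.1). The scripts were tested on simulated data. As nothing says that cultures are independent beyond their numbers, p-values measure the spread between these libraries. Named were genes not called in all 13, those with an adjusted p under 0.05 in any contrast, the 3 highest and 3 lowest percentiles, the 3 smallest p by region and by genotype, and Hmgcs1, Fdps, Sqle, Cyp51, Srebf1, Srebf2, Insig1, Acaca, Fasn and Scd2. Other genes were named after their values were seen. Genomic sequence windows are RefSeq, GRCm38.p6.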

Additional observations from a re-analysis of the deposited data

Results flagged for a closer look

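Among the 29 genes, 56 sets of 4 values (1 gene and measure in K27M telencephalon, the only group of 4) were checked for a single distant sample with Dixon's ratio at its 95% critical value, which chance passes for about 1 in 20 sets, and 2 passed. The relative fold of Hsd17b7 was 0.20 in culture 51 against 0.44 to 0.49 in the other 3 cultures (ratio 0.846). The Acat2 peak was 1096 bp wide in culture 41 against 1244 to 1274 bp in the others (ratio 0.831).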

How the results depend on the processing

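None of the 26 genes passed the adjusted threshold in any of the 7 fold comparisons or the 2 width comparisons under the alternatives run (no centring, cyclic loess, percentiles for fold, lists of equal number, a narrower promoter, the peak with the smallest p, genes called in at least 10 libraries, coding genes only, 1 gene per peak set, peaks with p of at most 1e-10, an overlap of 100 bp, no replicate block, and each library left out), nor any member tested by detection. The smallest adjusted p of a member by limma was 0.656 to 0.999 by region and 0.765 to 1.00 by genotype. The signs of the named regional and genotype differences did not change; by region Hsd17b7 ranged from -0.17 to -0.06, Acat2 from -0.20 to -0.05 and Idi1 from -0.13 to -0.02, each nearest 0 with no centring, and by genotype Cyp51 ranged from 0.15 to 0.28, Insig1 from 0.10 to 0.20 and Mvd from 0.09 to 0.16. Single libraries moved 3 of these by over 1.5 times: Acat2 was -0.07 without control telencephalon replicate 59 and -0.20 without K27M brainstem replicate 61, Idi1 was -0.04 without K27M brainstem or K27M telencephalon replicate 41, and Insig1 was 0.10 without control telencephalon replicate 61 or K27M brainstem replicate 61. Over all shared promoters the count by region, 2, was 4 with no replicate block and without control telencephalon replicate 59, 5 with cyclic loess and 0 with no centring (0 to 5 over all alternatives); by region in K27M, 3, it fell to 0 without K27M brainstem replicate 41 or 59 and K27M telencephalon replicate 41, 59 or 61. Leaving out the block changed no call of a member (0 in each comparison), and detection with a replicate block also gave 0. Of the same-number correlations 7 of 16 were over 0.1, against 6 of 47 between libraries of different number. Whether equal culture numbers pair the libraries was not tested.

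The percentile of the set depends on the peak list. With 16879 peaks a library, 23 of 29 genes were called in all libraries (30.3% of coding genes) and the median percentile was 77.4. With peaks of p at most 1e-10, 7 genes were called in all, with a median percentile of 80.2 and a median fold of 4.46. The share of coding genes called in all at that cutoff is not given here. Whether these 7 are many or few for promoters is therefore not shown. Both percentiles are counted within the reduced lists. The median of other promoters in those lists is not given here, so whether the set still ranks above them is not shown. Leaving out 1 library gave 26 to 27 genes, a median percentile of 87.2 to 88.2 and a median fold of 3.90 to 3.98. The unknown depth limits what a missing peak means.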

Other observations

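Peaks inside the genes but outside their promoters were called in at least 9 libraries for Insig2 and Srebf2 besides Acaca and Stard4. The Insig2 peak (chr1:121314714-121315685, intronic) was called in 12 libraries at a mean fold of 4.04 ± 0.60, missing in K27M brainstem culture 61. The Srebf2 peak (chr15:82203923-82205112, over coding and UTR exons) was called in 11 at 2.57 ± 0.17, missing in the same library and in control telencephalon culture 59. No annotated transcription start lies in either peak.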
